A study of Mus musculus with 12 samples.

Results

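Ketone body synthesis and use is followed here through 3 genes that act on acetoacetate in mitochondria, Bdh1, Oxct1 and Acat1, taken by symbol from the 47643 genes of the count table. They were measured in 12 bulk RNA-seq libraries from mouse intestine, in 4 groups of 3 libraries. PparaΔIE mice, whose name denotes loss of the nuclear receptor gene Ppara from intestinal epithelium, received a diet labelled 60% HFD (high-fat diet, PparaΔIE HFD) or chow (PparaΔIE chow). Pparafl/fl mice, which carry the floxed Ppara allele, received the same diets (Pparafl/fl HFD and Pparafl/fl chow). All mice were C57BL/6 males of 7 to 8 weeks, and feeding lasted 10 days. Which gut segment was taken, which recombinase line was used and which exons were deleted is not in the labels. Nor do they say that each library is a mouse of its own, so the p-values reflect the spread among these samples alone, and part or all of it may be technical.

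Ketone bodies are small acids made from acetyl-CoA when fat oxidation is high, above all in liver mitochondria. Intestinal epithelium is also known to make them, and β-hydroxybutyrate has been studied there as a signal to crypt stem cells. Acetoacetate and β-hydroxybutyrate are interconverted by β-hydroxybutyrate dehydrogenase, the product of Bdh1. Tissues that burn ketone bodies activate acetoacetate with a coenzyme A transferase encoded by Oxct1, and this is the committed step of ketone body use. The mitochondrial acetoacetyl-CoA thiolase encoded by Acat1 then splits acetoacetyl-CoA into acetyl-CoA for the tricarboxylic acid cycle. The thiolase also runs in reverse at the start of ketone body synthesis, and it cleaves an intermediate of isoleucine breakdown. PPARα, the protein made from Ppara, is a fatty acid sensor that drives fat oxidation and ketone body synthesis genes in liver.

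Oxct1 and Bdh1 are the members that were lower on the high-fat diet, and the DNA at their starts is shown so that the letters bound by PPARα with its partner RXR can be looked for. RefSeq, on build GRCm38.p6 (mm10), gave promoters for 2 of the 3 members, Oxct1 and Bdh1, and Bdh1 had a pair of them. Each runs from 250 bases before a transcription start to 50 bases after it, on the plus strand. The intervals are chr15:4026178-4026477 for Oxct1, chr16:31422047-31422346 for the first start of Bdh1 and chr16:31428503-31428802 for its second start. Capitals mark the stretch closest to 2 copies of AGGTCA in a row with any 1 base between them, the direct repeat known as the PPARα and RXR element, searched on both strands.
Oxct1: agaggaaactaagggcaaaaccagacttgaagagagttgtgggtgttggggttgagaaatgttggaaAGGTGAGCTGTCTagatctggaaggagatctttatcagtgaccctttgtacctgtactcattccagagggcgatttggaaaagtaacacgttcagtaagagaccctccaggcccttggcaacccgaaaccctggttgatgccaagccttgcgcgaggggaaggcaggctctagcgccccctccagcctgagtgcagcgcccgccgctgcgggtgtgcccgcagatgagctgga
Bdh1, first start: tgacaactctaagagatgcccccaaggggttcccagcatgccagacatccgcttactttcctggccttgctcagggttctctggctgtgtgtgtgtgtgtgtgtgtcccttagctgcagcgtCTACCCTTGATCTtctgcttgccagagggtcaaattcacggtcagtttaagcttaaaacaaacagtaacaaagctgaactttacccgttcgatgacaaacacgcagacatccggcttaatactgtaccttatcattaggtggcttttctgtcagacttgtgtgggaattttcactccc
Bdh1, second start: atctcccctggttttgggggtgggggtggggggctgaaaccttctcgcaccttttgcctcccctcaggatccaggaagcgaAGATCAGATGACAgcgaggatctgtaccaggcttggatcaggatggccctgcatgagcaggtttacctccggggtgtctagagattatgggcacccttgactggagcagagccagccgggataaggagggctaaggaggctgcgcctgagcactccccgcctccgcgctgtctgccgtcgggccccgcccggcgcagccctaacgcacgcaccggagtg

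None of the 3 promoters held the repeat or its single unit AGGTCA, which makes up each side of the repeat. Over 32851 RefSeq mouse promoters of the same length, the repeat was present in 0.0396% and the unit in 16.3%. The closest stretch of Oxct1, on the plus strand at bases 68 to 80 from the left end, differed at 4 of the 12 fixed letters. That of the first Bdh1 start, on the minus strand at bases 123 to 135, also differed at 4, and 79.8% of all promoters came at least as close. That of the second Bdh1 start, on the plus strand at bases 82 to 94, differed at 3, and 24.6% of all promoters came at least as close. The GC content was 55.3% for Oxct1, 48.3% for the first Bdh1 start and 63.7% for the second. These are matches of letters in short windows and say nothing about binding.

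The deposited values were RSEM expected counts, which share a read among the transcripts it fits, and they summed to between 33621040 and 53959405 per library. Levels are given as CPM, the usual count scaled to sequencing depth, after TMM scaling of library sizes. Ppara had 11.4, 11.1 and 17.3 CPM in PparaΔIE HFD libraries, against 39.3, 36.6 and 33.7 CPM in Pparafl/fl HFD libraries. It had 8.42, 15.6 and 13.0 CPM in PparaΔIE chow libraries, against 19.2, 18.1 and 21.98 CPM in Pparafl/fl chow libraries. Every PparaΔIE library was below every Pparafl/fl library on the same diet, with a log2 change of -1.46 on the high-fat diet (SE 0.21, adjusted p = 0.031) and -0.68 on chow (SE 0.21, adjusted p = 0.25). These p-values, and all others below, come from edgeR's quasi-likelihood test with Benjamini-Hochberg adjustment over 17602 genes. All 14 enterocyte markers checked passed the filter on low counts and summed to between 29209 and 39707 CPM per library. The 3 Pparafl/fl chow libraries on the whole resembled each other more than other replicates did. Over 146 immunoglobulin variable genes their log levels correlated at 0.909 to 0.964, against 0.702 to 0.911 within PparaΔIE chow, 0.737 to 0.812 within PparaΔIE HFD and 0.719 to 0.788 within Pparafl/fl HFD. The closest PparaΔIE chow pair, at 0.911, was thus as alike as the least alike Pparafl/fl chow pair, at 0.909. The diet results are also given without Pparafl/fl chow library 1 and PparaΔIE chow library 3, a setting chosen with earlier results of these data known. Other Pparafl/fl chow libraries stay in that fit, so it does not remove any dependence among them.

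All 3 members passed the filter and were well covered, with 6412 to 14383 expected counts per library for Oxct1, 1628 to 3933 for Bdh1 and 1437 to 2977 for Acat1. Oxct1 (ENSMUSG00000022186.14) lies on the plus strand of chromosome 15 at 4026383 to 4155344 in mm10. Bdh1 (ENSMUSG00000046598.14) lies on the plus strand of chromosome 16 at 31422280 to 31458901. Acat1 (ENSMUSG00000032047.5) lies on the minus strand of chromosome 9 at 53580522 to 53610382. All are protein coding, and the values cover the whole gene. Genes on the opposite strand overlap the first of these loci and the second: Gm15632 and BC037032 at Oxct1 had 0 to 3 and 25 to 59 counts per library, and Gm15743 at Bdh1 had 10 to 28.

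Per kilobase of exon, Oxct1 was the most abundant member in every group. On this scale it averaged 51.7 ± 1.36 CPM per kb in PparaΔIE HFD, 46.6 ± 5.25 in Pparafl/fl HFD, 73.3 ± 8.65 in PparaΔIE chow and 71.6 ± 1.70 in Pparafl/fl chow (SD, n = 3 each). Bdh1 averaged 12.8 ± 0.231 CPM per kb in PparaΔIE HFD, 14.02 ± 1.20 in Pparafl/fl HFD, 16.8 ± 1.62 in PparaΔIE chow and 19.3 ± 0.407 in Pparafl/fl chow. Acat1 averaged 11.9 ± 0.898 CPM per kb in PparaΔIE HFD, 14.02 ± 1.63 in Pparafl/fl HFD, 13.5 ± 1.80 in PparaΔIE chow and 14.96 ± 0.323 in Pparafl/fl chow. Bdh1 and Acat1 had like means in Pparafl/fl HFD, Acat1 averaged less than Bdh1 in the other groups, and Oxct1 lay far above both.

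Oxct1, the transferase that commits acetoacetate to oxidation, was lower on the high-fat diet in both genotypes. PparaΔIE HFD libraries had 190, 187 and 197 CPM, against 306, 243 and 265 CPM in PparaΔIE chow libraries. Pparafl/fl HFD libraries had 163, 159 and 195 CPM, against 262, 261 and 272 CPM in Pparafl/fl chow libraries. All 6 high-fat libraries, at 159 to 197 CPM, lay below all 6 chow libraries, at 243 to 306 CPM. Group means were 191 ± 5.04 CPM in PparaΔIE HFD, 172 ± 19.4 in Pparafl/fl HFD, 271 ± 32.0 in PparaΔIE chow and 265 ± 6.29 in Pparafl/fl chow (SD, n = 3 each). From low to high the order was Pparafl/fl HFD, PparaΔIE HFD, Pparafl/fl chow and PparaΔIE chow, and groups on the same diet overlapped.

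Bdh1, the dehydrogenase that joins β-hydroxybutyrate to acetoacetate, was also lower on the high-fat diet. PparaΔIE HFD libraries had 50.5, 48.8 and 49.8 CPM, against 70.4, 58.4 and 67.6 CPM in PparaΔIE chow libraries. Pparafl/fl HFD libraries had 59.5, 53.8 and 50.2 CPM, against 76.6, 73.5 and 74.5 CPM in Pparafl/fl chow libraries. Within each genotype the diets did not overlap. Across genotypes, the highest high-fat library, Pparafl/fl HFD library 1, lay just above the lowest chow library, PparaΔIE chow library 2. Group means were 49.7 ± 0.899 CPM in PparaΔIE HFD, 54.5 ± 4.66 in Pparafl/fl HFD, 65.5 ± 6.31 in PparaΔIE chow and 74.8 ± 1.58 in Pparafl/fl chow, in rising order. The high-fat groups overlapped each other, and the PparaΔIE chow libraries all lay below the Pparafl/fl chow libraries.

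Acat1, the thiolase shared by ketone body use, ketone body synthesis and isoleucine breakdown, differed less. PparaΔIE HFD libraries had 48.2, 41.6 and 43.9 CPM, against 57.8, 44.3 and 50.6 CPM in PparaΔIE chow libraries. Pparafl/fl HFD libraries had 59.7, 49.9 and 48.4 CPM, against 57.3, 54.9 and 56.4 CPM in Pparafl/fl chow libraries. The diets overlapped in both genotypes, and on the high-fat diet each PparaΔIE library lay below each Pparafl/fl library by a small margin. Group means were 44.6 ± 3.38 CPM in PparaΔIE HFD, 52.7 ± 6.13 in Pparafl/fl HFD, 50.9 ± 6.76 in PparaΔIE chow and 56.2 ± 1.21 in Pparafl/fl chow. From low to high the order was PparaΔIE HFD, PparaΔIE chow, Pparafl/fl HFD and Pparafl/fl chow, and each group overlapped its neighbour.

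**Figure D1:**
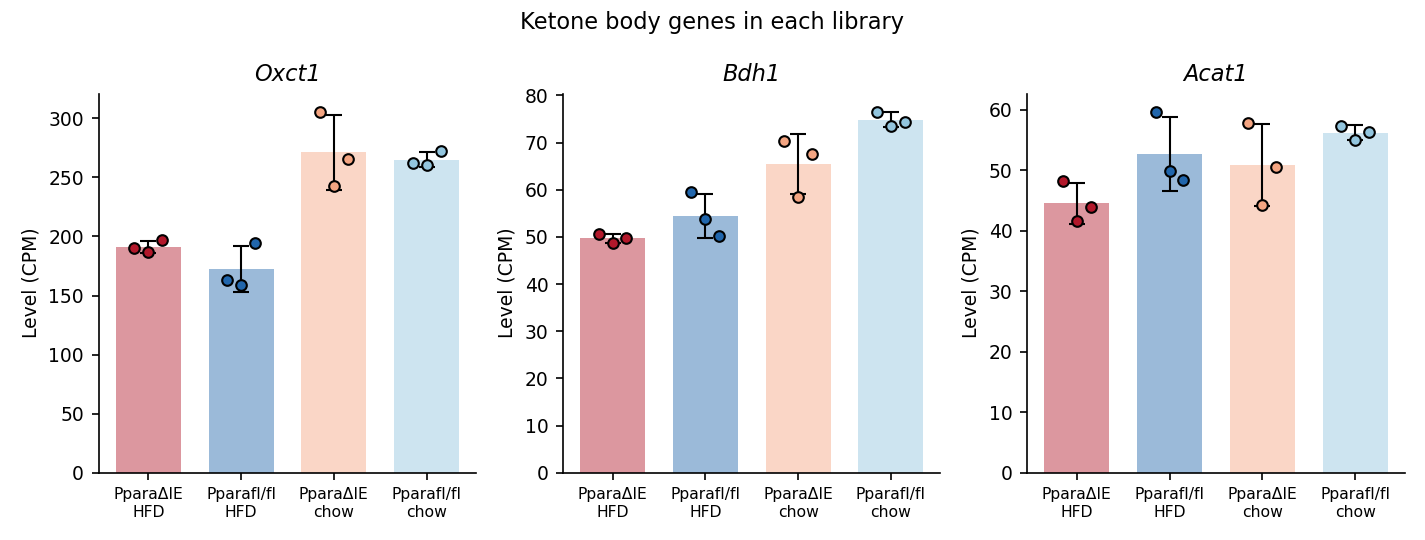
Levels of Oxct1, Bdh1 and Acat1 in CPM, 1 point per library, with the mean and SD of each group of 3 libraries as bars. Oxct1 lies between 159 and 197 CPM in the 6 high-fat libraries and between 243 and 306 CPM in the 6 chow libraries, while Acat1 overlaps between diets.

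Replicates did not vary alike in the 4 groups. The coefficient of variation of Oxct1 was 2.63% in PparaΔIE HFD, 11.3% in Pparafl/fl HFD, 11.8% in PparaΔIE chow and 2.37% in Pparafl/fl chow. In Pparafl/fl chow it was also low for Bdh1, at 2.11%, and for Acat1, at 2.16%. The fit shares 1 estimate of spread per gene over all 4 groups.

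The effect of the high-fat diet was asked first in each genotype. Among 17602 genes, 1444 (8.2%) differed between diets in PparaΔIE mice at an adjusted p under 0.05, and 838 (4.76%) were lower. Of the 3 members, 2 were called there, both lower. Oxct1 fell to 0.705 of its chow level (log2 fold change -0.50, SE 0.09, 95% interval -0.71 to -0.30, adjusted p = 0.0069). Bdh1 fell to 0.759 of its chow level (log2 fold change -0.40, SE 0.08, 95% interval -0.57 to -0.23, adjusted p = 0.0098). Acat1 had a log2 change of -0.19 (SE 0.10, 95% interval -0.41 to 0.02, adjusted p = 0.26).

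In Pparafl/fl mice, Oxct1 and Bdh1 were again the 2 members called, both lower, among 2353 genes called (13.4%) and 1156 lower (6.57%). Oxct1 fell to 0.650 of its chow level (log2 fold change -0.62, SE 0.09, 95% interval -0.82 to -0.42, adjusted p = 0.0014). Bdh1 fell to 0.728 of its chow level (log2 fold change -0.46, SE 0.08, 95% interval -0.63 to -0.29, adjusted p = 0.0032). Acat1 had a log2 change of -0.09 (SE 0.10, 95% interval -0.31 to 0.12, adjusted p = 0.58). High-fat and chow groups did not overlap, with high-fat lower, in 13.1% of all genes in PparaΔIE mice and in 18.6% in Pparafl/fl mice, which is the background for the same separation of Oxct1 and Bdh1. In PparaΔIE mice the fit to the groups compared alone gave Bdh1 an adjusted p of 0.058, and leaving out Pparafl/fl chow library 1 and PparaΔIE chow library 3 gave 0.086 for Bdh1 and 0.057 for Oxct1. In Pparafl/fl mice, the adjusted p without those libraries was 0.040 for Bdh1 and 0.023 for Oxct1.

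Averaged over genotypes, with 6 libraries on each side, 26.2% of all genes were called, 13.3% lower and 12.9% higher. Oxct1 fell by 32.3% (log2 fold change -0.56, SE 0.07, adjusted p = 8.3e-05) and Bdh1 fell by 25.6% (log2 fold change -0.43, SE 0.06, adjusted p = 0.00017). Oxct1 stood at rank 113 and Bdh1 at rank 207 of the 17602 genes by p-value. Acat1 had a log2 change of -0.14 (SE 0.07, 95% interval -0.29 to 0.01, adjusted p = 0.16). The groups of 6 did not overlap for Oxct1, as for 4.25% of all genes in that direction. Without Pparafl/fl chow library 1 and PparaΔIE chow library 3, the log2 fold change was -0.59 for Oxct1 (adjusted p = 0.0019) and -0.42 for Bdh1 (adjusted p = 0.0046). In a bulk sample, fewer cells that express a gene and less of its RNA per cell cannot be told apart.

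**Figure D2:**
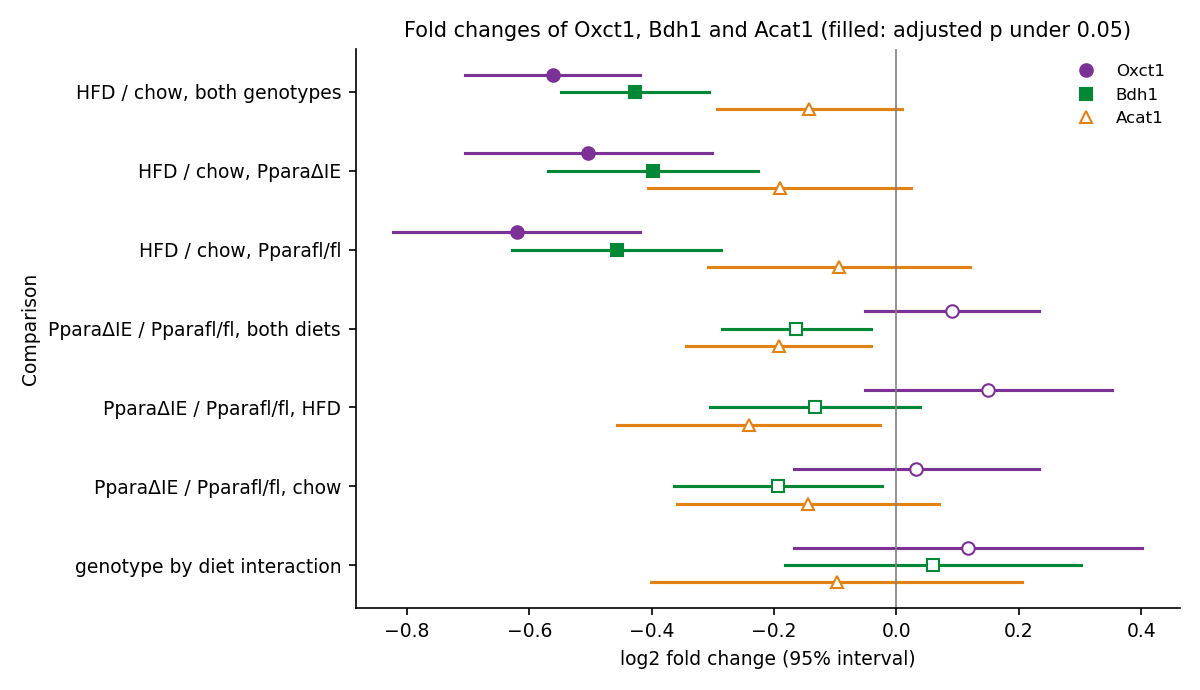
Log2 fold changes of Oxct1, Bdh1 and Acat1 with 95% intervals in the 7 comparisons of diet and genotype, where a filled marker has an adjusted p under 0.05. The filled markers are Oxct1 and Bdh1 in the 3 diet comparisons, on the side of lower levels on the high-fat diet.

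Loss of epithelial Ppara was asked next. None of the 3 members was called between genotypes, where 22 genes (0.125%) were called on chow, 51 (0.29%) on the high-fat diet and 262 (1.49%) averaged over diets by edgeR. At an unadjusted p under 0.05, edgeR gave 1 member on chow, 1 on the high-fat diet and 2 in the average, where 13.0%, 13.0% and 19.5% of all genes passed. DESeq2 called 0 members in each, among 182, 289 and 957 genes called in all. Bdh1 had a log2 change of -0.19 on chow (SE 0.08, 95% interval -0.36 to -0.02, adjusted p = 0.33) and -0.13 on the high-fat diet (SE 0.08, 95% interval -0.31 to 0.04, adjusted p = 0.51). On chow its PparaΔIE libraries all lay below its Pparafl/fl libraries, a separation that 12.1% of all genes showed. Oxct1 had a log2 change of 0.03 on chow (SE 0.09, 95% interval -0.17 to 0.23, adjusted p = 0.91) and 0.15 on the high-fat diet (SE 0.09, 95% interval -0.05 to 0.35, adjusted p = 0.52). Acat1 had a log2 change of -0.14 on chow (SE 0.10, 95% interval -0.36 to 0.07, adjusted p = 0.55) and -0.24 on the high-fat diet (SE 0.10, 95% interval -0.46 to -0.03, adjusted p = 0.33). On the high-fat diet its groups did not overlap, with PparaΔIE lower, as for 8.7% of all genes. Averaged over diets the values were -0.16 for Bdh1 (SE 0.06, adjusted p = 0.14), 0.09 for Oxct1 (SE 0.07, adjusted p = 0.47) and -0.19 for Acat1 (SE 0.07, adjusted p = 0.16).

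Markers of smooth muscle and of Paneth cells differed between genotypes. On the high-fat diet, where 0.29% of all genes were called, 2 of the 10 smooth muscle markers were called, both higher in PparaΔIE (Synm and Flnc). All 10 passed the filter and none was at 0, and their summed level was 96.3 to 122 CPM in PparaΔIE HFD, against 37.6 to 74.3 CPM in Pparafl/fl HFD. It was 52.6 to 67.2 CPM in PparaΔIE chow, against 67.8 to 69.8 CPM in Pparafl/fl chow. With the mean log2 level of these markers as a covariate, Acat1 was called lower in PparaΔIE on the high-fat diet (log2 fold change -0.67, adjusted p = 0.0060), as was Bdh1 (log2 fold change -0.42, adjusted p = 0.028). This covariate raised the genes called in that comparison from 51 to 1516. The score, centred over the 12 libraries, was 0.43 to 0.71 in PparaΔIE HFD and -0.78 to 0.12 in Pparafl/fl HFD. These groups did not overlap in it, so the fit cannot fully separate genotype from score on that diet. Of the 10 Paneth cell markers, none at 0, 3 were called lower in PparaΔIE on the high-fat diet and 6 averaged over diets, where 0.846% of all genes were lower. They summed to 2664 to 2736 CPM in PparaΔIE HFD, against 3305 to 4932 CPM in Pparafl/fl HFD, and to 2612 to 2743 CPM in PparaΔIE chow, against 3019 to 3651 CPM in Pparafl/fl chow. The part of the Paneth cell markers in the genotype values was not tested.

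The interaction, which asks whether the diet effect differed between genotypes, was called for none of the members, and for 1 of the 17602 genes (0.00568%) by edgeR. At an unadjusted p under 0.05 it gave 0 members and 1116 genes (6.34%), and DESeq2 called 0 members and 47 genes. The difference between the log2 diet effects, PparaΔIE minus Pparafl/fl, was 0.12 for Oxct1 (SE 0.13, 95% interval -0.17 to 0.40), 0.06 for Bdh1 (SE 0.11, 95% interval -0.18 to 0.30) and -0.10 for Acat1 (SE 0.14, 95% interval -0.40 to 0.21). The intervals leave room for a difference as large as 0.40 on the log2 scale in either direction for at least 1 member.

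Because Oxct1 and Bdh1 were lower on the high-fat diet and Acat1 differed less, the balance between the members was set out library by library. The log2 ratio of Acat1 to Oxct1 in CPM was -2.10 ± 0.11 in PparaΔIE HFD, against -2.42 ± 0.03 in PparaΔIE chow. It was -1.71 ± 0.28 in Pparafl/fl HFD, against -2.24 ± 0.04 in Pparafl/fl chow (SD, n = 3 each). Every high-fat library, at -2.17 to -1.45, lay above every chow library, at -2.45 to -2.19. The log2 ratio of Acat1 to Bdh1 was -0.16 ± 0.08 in PparaΔIE HFD, against -0.37 ± 0.07 in PparaΔIE chow. It was -0.05 ± 0.06 in Pparafl/fl HFD, against -0.41 ± 0.01 in Pparafl/fl chow, and again no high-fat library reached down to a chow library. The log2 ratio of Bdh1 to Oxct1 was -1.94 ± 0.04 in PparaΔIE HFD, -1.66 ± 0.26 in Pparafl/fl HFD, -2.05 ± 0.07 in PparaΔIE chow and -1.82 ± 0.05 in Pparafl/fl chow, and the diets overlapped. The ratios follow from the levels above and were given no test.

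Some markers of gut segments and cell types were also called between diets, in both directions. The shares of all genes called in the averaged comparison were 12.9% higher and 13.3% lower. Of 5 markers of the proximal small intestine, 4 passed the filter, and Pdx1, the fifth, was at 0 in some libraries of 3 groups. Averaged over genotypes 1 of the 4, the lactase gene Lct, was called higher on the high-fat diet. The list summed to 203 to 286 CPM in PparaΔIE HFD, against 205 to 214 CPM in PparaΔIE chow, and to 184 to 331 CPM in Pparafl/fl HFD, against 120 to 151 CPM in Pparafl/fl chow. Of the 5 distal markers, none at 0, 2 were called higher too (Cubn and Fgf15). The distal list summed to 6206 to 9341 CPM in PparaΔIE HFD, against 5934 to 6266 CPM in PparaΔIE chow, and to 7043 to 8733 CPM in Pparafl/fl HFD, against 6077 to 6340 CPM in Pparafl/fl chow.

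Of 7 colon markers, 5 passed, with Car4 and Car1 called lower and Slc26a3 and Mptx1 called higher, and a median log2 fold change of 0.16. Aqp8 and Hoxb13, defining colon markers, were at 0 in all PparaΔIE libraries. They were at or near 0 in the Pparafl/fl groups too, with means of at most 0.025 CPM. The list summed to 258 to 306 CPM in PparaΔIE HFD, against 305 to 469 CPM in PparaΔIE chow, and to 261 to 276 CPM in Pparafl/fl HFD, against 347 to 387 CPM in Pparafl/fl chow. Car4 made up much of that difference, at 92.1 ± 17.5 CPM in PparaΔIE HFD, against 205 ± 99.6 CPM in PparaΔIE chow, and 85.8 ± 4.92 CPM in Pparafl/fl HFD, against 218 ± 17.7 CPM in Pparafl/fl chow (SD, n = 3 each). Of 8 goblet cell markers, none at 0, 5 were called lower (Agr2, Tff3, Spdef, Muc2 and Spink4), with a median of -0.32. They summed to 24367 to 28279 CPM in PparaΔIE HFD, against 29456 to 29813 CPM in PparaΔIE chow, and to 24689 to 30026 CPM in Pparafl/fl HFD, against 25855 to 27732 CPM in Pparafl/fl chow. Of the 14 enterocyte markers, none at 0, 3 were called higher (Fabp2, Apoa4 and Alpi) and 2 lower (Krt20 and Krt8), with a median of 0.05. These calls are averaged over genotypes, where 12.9% of all genes were higher and 13.3% lower. In the same comparison 4 of the 10 Paneth cell markers were called higher and 1 lower. Of 10 stem and crypt base markers 2 were lower (Smoc2 and Prom1), and of 10 immune cell markers 1 was higher (Ptprc). Of the 10 smooth muscle markers 1 was higher (Synm). In PparaΔIE alone 3 were (Myh11, Synm and Flnc), where 8.2% of all genes were called. The labels do not give the segment of any library. The part of the distal, colon, goblet cell, enterocyte, Paneth cell, stem cell and immune cell markers in the diet result was not tested.

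A proximal score, the mean log2 level of the proximal markers centred over the 12 libraries, was -0.04, 1.04 and 0.59 in PparaΔIE HFD libraries and 0.89, 0.78 and 0.08 in Pparafl/fl HFD libraries. It was -1.29, 0.57 and 0.29 in PparaΔIE chow libraries and between -1.01 and -0.91 in the 3 Pparafl/fl chow libraries. Between diets in Pparafl/fl, the log2 changes of the 4 markers in the score ran from -0.63 to 6.15, so it follows Lct most. Lct averaged 164 ± 90.1 CPM in Pparafl/fl HFD, against 2.33 ± 0.382 CPM in Pparafl/fl chow. Slc40a1, 1 of the 4, went the other way, at 82.6 ± 19.6 CPM against 128 ± 15.2 CPM. Whether the score tracks gut segment was not tested. The high-fat libraries had 159 to 197 CPM of Oxct1 and 48.8 to 59.5 CPM of Bdh1. PparaΔIE chow libraries 2 and 3, whose scores lay inside the high-fat range, had 243 and 265 CPM of Oxct1 and 58.4 and 67.6 CPM of Bdh1. With the score as a covariate, the log2 fold change of Oxct1 between diets was -0.39 in PparaΔIE (adjusted p = 0.021), -0.38 in Pparafl/fl (adjusted p = 0.17) and -0.38 averaged over genotypes (adjusted p = 0.018). That of Bdh1 was -0.36 in PparaΔIE (adjusted p = 0.041), -0.38 in Pparafl/fl (adjusted p = 0.20) and -0.37 averaged over genotypes (adjusted p = 0.031). In Pparafl/fl the diets did not overlap in the score, so the fit cannot fully separate diet from score in that genotype. Acat1 averaged over genotypes gave 0.00 with this covariate (adjusted p = 0.996).

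**Figure D3:**
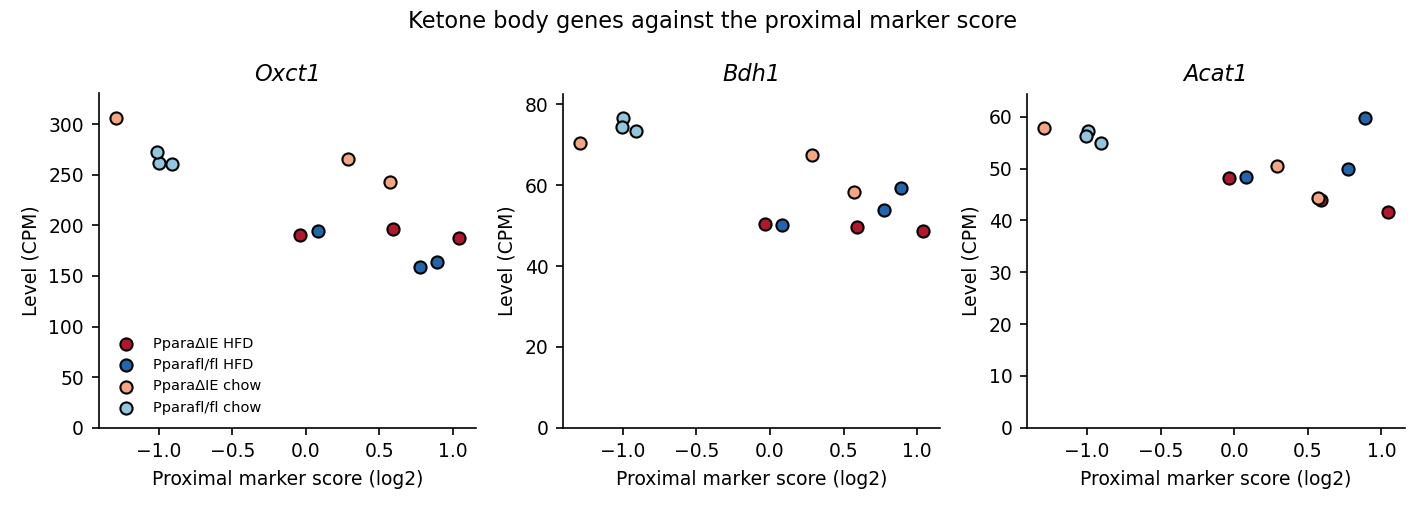
Levels of Oxct1, Bdh1 and Acat1 in CPM against the proximal marker score (log2, centred over 12 libraries), 1 point per library and 1 colour per group. The scores run from -1.29 to 0.57 in PparaΔIE chow libraries, whose Oxct1 levels are 243 to 306 CPM, and from -0.04 to 1.04 in the high-fat libraries, whose Oxct1 levels are 159 to 197 CPM. In Pparafl/fl chow libraries they run from -1.01 to -0.91, below all high-fat libraries.

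Over the 12 libraries, which share diets and genotypes, the log levels of Bdh1 and Oxct1 correlated at Pearson's r of 0.793, those of Acat1 and Bdh1 at 0.767 and those of Acat1 and Oxct1 at 0.361. Among 11086 genes with a mean of at least 1 log2 CPM, the 4 most like Bdh1 were Acly, Krt19, Cenpx and Ppp2r1a, with r of 0.983, 0.981, 0.981 and 0.980. Acly encodes the enzyme that makes cytosolic acetyl-CoA from citrate, and Krt19 an epithelial keratin. Those most like Oxct1 were Cd274, Spats2l, Pla2g3 and Dpp7, with r of 0.976, 0.974, 0.973 and 0.963. Cd274 encodes the immune checkpoint ligand PD-L1, and had a log2 change between diets of -1.88 in PparaΔIE (adjusted p = 0.0015) and -2.36 in Pparafl/fl (adjusted p = 0.00030). Those most like Acat1 were Coa3, Pebp1, Mrpl51 and Atpif1, with r of 0.969, 0.962, 0.961 and 0.960. Coa3 encodes an assembly factor of respiratory complex IV and Mrpl51 a mitochondrial ribosomal protein. These correlations follow the groups and are given as descriptions.

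Of the cytosolic counterparts, Aacs was lower on the high-fat diet in both genotypes. Aacs encodes the cytosolic enzyme that activates acetoacetate for lipid synthesis, and Acat2 a cytosolic thiolase of sterol synthesis. Aacs averaged 67.2 ± 1.70 CPM in PparaΔIE HFD, against 103 ± 11.6 CPM in PparaΔIE chow, and 78.6 ± 6.96 CPM in Pparafl/fl HFD, against 141 ± 12.3 CPM in Pparafl/fl chow (SD, n = 3 each). It fell with the high-fat diet in PparaΔIE (log2 fold change -0.62, SE 0.09, adjusted p = 0.0021) and in Pparafl/fl (log2 fold change -0.84, SE 0.09, adjusted p = 0.00023). It was also lower in PparaΔIE averaged over diets, where 0.846% of all genes were called lower (log2 fold change -0.33, SE 0.07, adjusted p = 0.027). That call was lost without PparaΔIE HFD library 1 or 2, PparaΔIE chow library 2 or 3 or Pparafl/fl chow library 1 or 3, with log2 fold changes of -0.38 to -0.30 over the 12 fits that left out 1 library each. The call was also lost with the proximal score (log2 fold change -0.28, adjusted p = 0.055). Leaving out both Pparafl/fl chow library 1 and PparaΔIE chow library 3 lost it too (log2 fold change -0.32, adjusted p = 0.24). Acat2 averaged 34.9 ± 3.02 CPM in PparaΔIE HFD, against 42.5 ± 14.1 CPM in PparaΔIE chow, and 39.2 ± 4.59 CPM in Pparafl/fl HFD, against 57.8 ± 1.99 CPM in Pparafl/fl chow. Averaged over genotypes it fell with a log2 change of -0.42 (SE 0.14, adjusted p = 0.042), and it was called in neither PparaΔIE (adjusted p = 0.40) nor Pparafl/fl alone (adjusted p = 0.079). The averaged call held in 3 of the 12 fits that left out 1 library, those without PparaΔIE chow library 1 or 2 or Pparafl/fl HFD library 1, with log2 fold changes of -0.54 to -0.31 over the 12. With the proximal score it was -0.14 (adjusted p = 0.75).

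The other paralogs were barely detected. Oxct2a, a relative of Oxct1 known from testis, had 12 to 37 expected counts per library, and its close copy Oxct2b had 1 to 16. Bdh2, a cytosolic relative of Bdh1, had 0 to 8, and Acat3, a further thiolase gene, had 9 to 25. Oxct2a and Oxct2b can share reads, so their separate counts are uncertain. Of the 6 genes in this list, 4 passed the filter, and Aacs and Acat2 were the 2 called lower on the high-fat diet averaged over genotypes, with a median log2 fold change of -0.45. The median over all genes was 0.01, and 13.3% of all genes were called lower.

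Transport of ketone bodies across membranes relies on monocarboxylate carriers, and all 8 genes of that list were tested. Averaged over genotypes, 3 were lower and 1 was higher on the high-fat diet, with a median of -0.07, where 13.3% of all genes were lower and 12.9% higher. Slc16a3, a proton-linked carrier that exports lactate, averaged 17.2 ± 2.78 CPM in PparaΔIE HFD, against 34.6 ± 16.3 CPM in PparaΔIE chow, and 19.0 ± 4.14 CPM in Pparafl/fl HFD, against 41.1 ± 7.03 CPM in Pparafl/fl chow (log2 fold change -1.06, SE 0.23, adjusted p = 0.010). Slc5a8, a sodium-coupled carrier of short-chain acids and ketone bodies, had a log2 change of -0.45 (SE 0.11, adjusted p = 0.010), and Bsg, a chaperone of the carriers, -0.26 (SE 0.06, adjusted p = 0.0067). Slc16a7, a high-affinity carrier, rose by 0.62 on the log2 scale (SE 0.22, adjusted p = 0.049) at 0.578 to 1.03 CPM as group means, a call lost in 8 of the 12 fits that left out 1 library each. Without Pparafl/fl chow library 1 and PparaΔIE chow library 3, 2 were lower and 0 higher, and with the proximal score 0 were called. The genes called in all fell from 4613 to 2371 and 608 in these settings. Within a single genotype 0 of 8 were called by edgeR, with 3 in PparaΔIE and 5 in Pparafl/fl at an unadjusted p under 0.05, where 25.2% and 29.4% of all genes passed. DESeq2 called 3 and 4 of the list, among 2154 and 2925 genes called in all. The smallest adjusted p-values of edgeR within a genotype were those of Slc16a3 and Bsg in Pparafl/fl, at 0.057 and 0.059. Slc16a1, the widely expressed carrier of lactate and ketone bodies, averaged 64.7 ± 2.26 CPM in PparaΔIE HFD, against 59.1 ± 2.06 CPM in PparaΔIE chow, and 60.7 ± 4.22 CPM in Pparafl/fl HFD, against 59.2 ± 2.69 CPM in Pparafl/fl chow (averaged log2 fold change 0.08, SE 0.05, adjusted p = 0.23).

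Of the 10 genes for receptors and signalling linked to ketone bodies and short-chain acids, 8 passed the filter, Hcar2 and Fgf21 being too low. Averaged over genotypes, 2 rose on the high-fat diet and 0 fell, with a median of 0.09, where 12.9% of all genes were higher. Ffar3, a receptor for short-chain acids that also binds β-hydroxybutyrate, rose by 0.50 (SE 0.16, adjusted p = 0.035) and Ppargc1a, a coactivator that works with PPARα, by 0.29 (SE 0.10, adjusted p = 0.048), both on the log2 scale. Without Pparafl/fl chow library 1 and PparaΔIE chow library 3, neither was called, and each lost its call in 9 of the 12 fits that left out 1 library. DESeq2 called 1 gene of the list averaged over genotypes, among 4781 genes called in all.

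Acat1 takes part in isoleucine breakdown, and 15 genes of leucine and isoleucine breakdown were set beside it. Averaged over genotypes, 7 of the 15 fell on the high-fat diet, 0 rose and 8 were not called, with a median of -0.24, against 13.3% of all genes lower and a median of 0.01. Bckdha, a subunit of the branched-chain keto acid dehydrogenase, averaged 14.4 ± 0.787 CPM in PparaΔIE HFD, against 20.5 ± 0.647 CPM in PparaΔIE chow, and 17.2 ± 1.37 CPM in Pparafl/fl HFD, against 22.7 ± 0.887 CPM in Pparafl/fl chow (log2 fold change -0.46, SE 0.06, adjusted p = 0.00011). Ivd, which acts next on leucine, had a log2 change of -0.47 (SE 0.07, adjusted p = 0.00024), and Acadsb, which acts on isoleucine, -0.56 (SE 0.11, adjusted p = 0.0022). Echs1, an enoyl-CoA hydratase shared with fat oxidation, had -0.42 (SE 0.07, adjusted p = 0.00072). Within a genotype, 5 fell in PparaΔIE and 5 in Pparafl/fl, with medians of -0.26 and -0.21, where 4.76% and 6.57% of all genes were lower. Leaving out 1 library gave 3 to 6 in PparaΔIE, 2 to 5 in Pparafl/fl and 5 to 11 averaged, the 11 without Pparafl/fl HFD library 1. Without Pparafl/fl chow library 1 and PparaΔIE chow library 3, the averaged count was 6, with 1 in each genotype, and with the proximal score it was 2. Without the pair, 2371 genes were called in all averaged, 185 in PparaΔIE and 458 in Pparafl/fl, and with the score 608 averaged.

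In the tricarboxylic acid cycle, which burns the acetyl-CoA released from ketone bodies, 7 of 16 genes fell averaged over genotypes and 0 rose, with a median of -0.15, where 13.3% of all genes were lower. Suclg2, a subunit of the enzyme that makes or uses succinyl-CoA, the coenzyme A donor for the Oxct1 product, averaged 88.9 ± 0.349 CPM in PparaΔIE HFD, against 108 ± 9.81 CPM in PparaΔIE chow. It averaged 93.4 ± 3.62 CPM in Pparafl/fl HFD, against 113 ± 3.75 CPM in Pparafl/fl chow (log2 fold change -0.28, SE 0.05, adjusted p = 0.0017). Fh1, the fumarase gene, had a log2 change of -0.32 (SE 0.08, adjusted p = 0.012), Sdhc, a subunit of succinate dehydrogenase, -0.27 (SE 0.06, adjusted p = 0.0066), and Idh3b, a subunit of isocitrate dehydrogenase, -0.22 (SE 0.06, adjusted p = 0.016). Within a genotype 1 fell in PparaΔIE (Suclg2) and 2 in Pparafl/fl (Suclg2 and Sdhc), where 4.76% and 6.57% of all genes were lower. Leaving out 1 library gave 0 to 6 in PparaΔIE, 0 to 5 in Pparafl/fl and 4 to 9 averaged, the 4 without Pparafl/fl chow library 3 or Pparafl/fl HFD library 3. Suclg2 was called in 6 of these 12 fits in PparaΔIE, and in Pparafl/fl Suclg2 was called in 7 and Sdhc in 5. Without Pparafl/fl chow library 1 and PparaΔIE chow library 3, the averaged count was 3, and with the proximal score it was 0. The genes called in all fell from 4613 to 2371 and 608 in these settings.

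**Figure D4:**
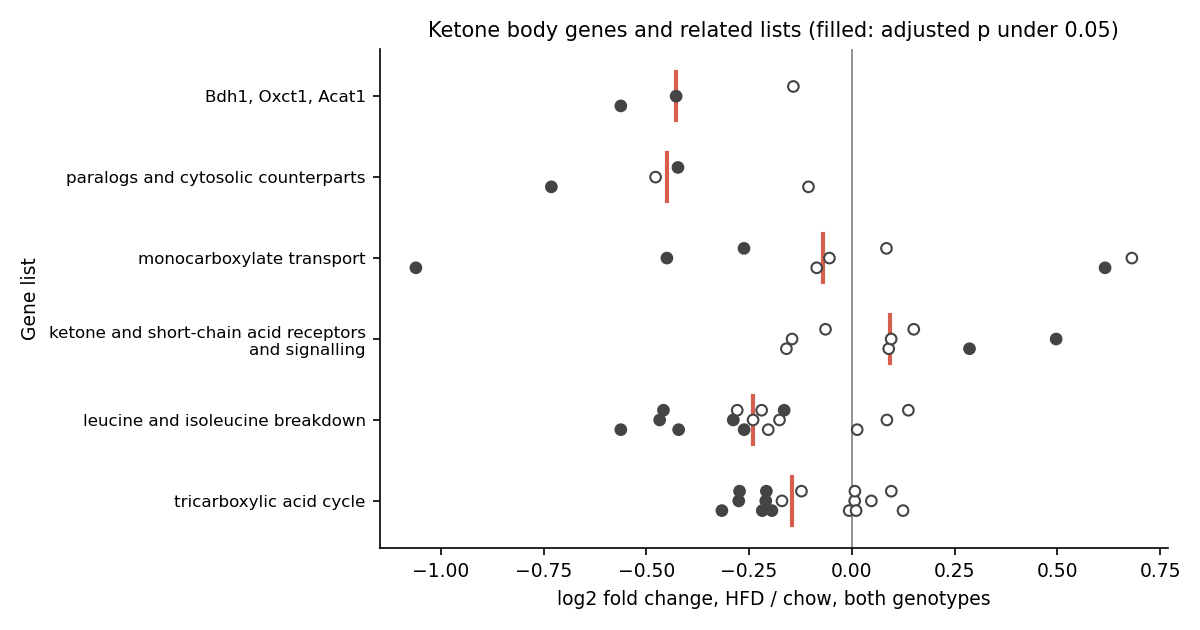
Log2 fold changes between the high-fat diet and chow, averaged over genotypes, of the 3 members and of the genes in 5 related lists, 1 point per gene, filled where the adjusted p is under 0.05, with a red bar at each median. Oxct1, Bdh1, 7 genes of leucine and isoleucine breakdown and 7 of the tricarboxylic acid cycle are filled on the side of lower levels, and the transport list has 3 lower and 1 higher.

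Between genotypes averaged over diets, edgeR called 0 genes in the lists of transport, receptors, amino acid breakdown and the tricarboxylic acid cycle. At an unadjusted p under 0.05 it gave 2 of 8, 1 of 8, 6 of 15 and 6 of 16 in that order, where 19.5% of all genes passed. DESeq2 called 0, 0, 1 and 1, among 957 genes called in all. The smallest adjusted p-values of edgeR were those of Bckdha, at 0.078 with a log2 change of -0.21 (SE 0.06), and Sucla2, at 0.10 with -0.17 (SE 0.05). Sucla2 encodes another subunit of succinyl-CoA ligase. The list medians were -0.06 for transport, 0.10 for receptors, -0.06 for amino acid breakdown and -0.12 for the tricarboxylic acid cycle, against 0.00 over all genes.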

How the data were processed

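Total RNA from intestine was made into stranded libraries, per the labels' protocols. Trimmomatic, STAR, Picard, RSEM and the build mm10 are named in the submitters' processing notes, with no version, annotation release or strand setting. The authors deposited RSEM expected counts per gene, of which 12.3% to 13.2% per library were not whole (Oxct1 and Bdh1 in 12 of 12 libraries, Acat1 in 0). These were rounded. Of 47643 Ensembl IDs, 47224 matched a symbol. Genes passing filterByExpr (17602) were tested with edgeR 4.0.16 (TMM, robust quasi-likelihood fit of 4 group means over 12 libraries, threshold 0.05), in R 4.3.3. SE was derived from the F statistic. The method was tested on simulated counts. DESeq2 1.42.0, other filters, left-out libraries and marker scores were alternatives. Depth was 33621040 to 53959405 expected counts per library. Coordinates and exon lengths are from GENCODE vM21, where IDs were matched without version.

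The members and lists were chosen with earlier results of these data known. Named genes were the members, Ppara, the paralogs, up to 4 genes per list, direction and comparison with the smallest p among those called (up to 2 where none was), and the 4 most correlated genes per member. Slc16a1 was added after its values were seen. Other genes of ketone body synthesis are not reported here. Same-numbered libraries did not deviate together, so the numbers were not used as pairs.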

Additional observations from a re-analysis of the deposited data

How the results depend on the processing

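Of the calls for the members, those of Oxct1 and Bdh1 between diets averaged over genotypes held in all 20 alternatives. Those within 1 genotype held in the 12 fits leaving out 1 library each, with log2 fold changes in PparaΔIE of -0.58 to -0.43 for Oxct1 and -0.48 to -0.36 for Bdh1, and in Pparafl/fl of -0.72 to -0.58 and -0.54 to -0.40 for the same genes. They were lost in 3 other settings. With the proximal score, in which the Pparafl/fl diets did not overlap, the Pparafl/fl values were -0.38 for Oxct1 and -0.38 for Bdh1. In PparaΔIE, Bdh1 was -0.40 when the groups compared were fitted alone, and without Pparafl/fl chow library 1 and PparaΔIE chow library 3 it was -0.39 and Oxct1 -0.54. The smooth muscle score added calls in PparaΔIE against Pparafl/fl, for Bdh1 on the high-fat diet (-0.42) and averaged (-0.27) and for Acat1 on the high-fat diet (-0.67) and averaged (-0.36), and between diets for Acat1 in PparaΔIE (-0.50) and averaged (-0.19). Signs turned, all short of the threshold, for the interaction of Bdh1 (-0.29) and Acat2 (-0.31) with the smooth muscle score and of Oxct1 (-0.011) with the proximal score. They also turned for Acat1 between diets in Pparafl/fl with the smooth muscle score (0.11) and the proximal score (0.10), and averaged with the proximal score (0.0015). The cause was not tested. Leaving out 1 library gave interactions of -0.012 to 0.14 for Bdh1 and -0.18 to 0.016 for Acat1, and genotype values of -0.059 to 0.11 for Oxct1 on chow and, averaged over diets, -0.19 to -0.13 for Bdh1 and -0.25 to -0.15 for Acat1. Both averages were called without PparaΔIE chow library 1 (adjusted p = 0.047 and 0.035). Acat1 between diets averaged over genotypes ranged over -0.20 to -0.11, and was called without PparaΔIE chow library 2 (adjusted p = 0.037) or Pparafl/fl HFD library 1 (adjusted p = 0.041).

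The counts of genes called moved more than the members did. Between genotypes on chow, 22 genes became 182 by DESeq2, 49 with no filter, 54 with the groups compared alone, 1 without the pair of chow libraries, 8 with the proximal score and 1 to 517 leaving out 1 library. On the high-fat diet 51 became 289, 94, 6 and 3 in the first 4 of these, 1516 with the smooth muscle score and 5 to 173 leaving out 1 library. Averaged over diets 262 became 957 by DESeq2, 3 without the pair, 2737 with the smooth muscle score, 102 with the proximal score and 11 to 1463 leaving out 1 library. Between diets in Pparafl/fl, 2353 became 458 without the pair, 936 and 64 with the smooth muscle and proximal scores, and 895 to 3089 leaving out 1 library. In PparaΔIE 1444 became 335 with the groups compared alone, 185 without the pair, 2538 and 588 with the scores, and 451 to 2551 leaving out 1 library. Averaged over genotypes 4613 became 2371 without the pair and 608 with the proximal score. For the interaction, 1 became 47 by DESeq2, 4 with no filter, 58 with the smooth muscle score, 0 to 19 leaving out 1 library, and 0 with a filter of 50 counts, without the pair or with the proximal score.

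Same-numbered libraries correlated at -0.14 to 0.17 in their deviations from group means. With replicate number as a block, the count between genotypes on chow was 14 and that of the interaction 0, and Oxct1 had a log2 change between diets of -0.50 in PparaΔIE and -0.62 in Pparafl/fl. The block changed no call of a member. With at least 1437 counts per library for each member, the width of the intervals reflects the spread between 3 libraries a group more than depth. Ppara itself lost its call on the high-fat diet in 10 alternatives.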
